A study of Oryza sativa with 36 samples.

Results

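Rice locus identifiers carry the chromosome and a number that rises along it, so a run of numbers is a stretch of chromosome. The 233 loci described here are the rows of the count matrix with identifiers from LOC_Os03g45000 to LOC_Os03g55000, on chromosome 3, that had at least 100 counts summed over 35 libraries, out of 55801 rows in all. The stretch holds 863 identifiers, of which 494 had a count and 238 reached 100 counts. A list of 11 identifier numbers was left out by the rule, and 5 of these had reached 100 counts. The lowest locus kept had 101 counts and the highest one just below the minimum had 99. The rule used the summed count and not the difference between cultivars.

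The stretch surrounds OsTB1, and the results below describe the loci around it, not OsTB1 itself. From general knowledge, which the labels do not give, OsTB1 encodes a TCP-family transcription factor that holds back the outgrowth of axillary buds, as its maize counterpart teosinte branched1 does, and MP3 is a natural allele of it that raises the number of panicles. A near-isogenic line carries a donor segment around the selected locus in the background of a recurrent cultivar, here Takanari, a high-yielding indica rice. Genes beside the selected locus are carried along with it, and how far they are carried in NIL-MP3 is unknown from the labels. The question was therefore whether the loci of the stretch differ between the line and its parent, and whether they do so in each set of libraries. The files do not pair identifiers with gene names (0 of 55801 identifiers matched the gene table used here), so the loci are given by identifier, with no name or role.

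Expression was measured by CEL-Seq2, which counts molecules tagged near the 3' end. The tissue was labelled axillary meristem, from NIL-MP3 (18 libraries) and Takanari (17 libraries), with tissue codes AM1 to AM5 and SAM that the labels do not spell out. Plants of both cultivars grew in chambers at 27 °C during a light period of 10 h and at 25 °C for the other 14 h, and no plant age is given. Libraries are numbered 1 to 18 within each cultivar, in sets of 6 (1 to 6, 7 to 12 and 13 to 18) that each hold 1 library of every tissue. Takanari number 18, a SAM library, has no counts, so the last Takanari set had 5 libraries. Ranges, means and medians of that set below therefore lack SAM, while the fits between sets carried tissue as a term. Separate plants are not named in the labels, and p-values therefore cover only the spread among libraries, which may be technical. The labelled tissue could not be checked against marker genes, because the identifiers carry no names.

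Libraries held 77362 to 224706 counts. Of the 233 loci, 163 passed the filter on low counts and were tested together with all 6943 loci that passed. The rest of chromosome 3, below, is the 882 other tested loci of that chromosome, including any left-out locus that passed. The 70 of the 233 loci that did not pass had at most 213 counts in all. NIL-MP3 numbers 13 to 18 stood apart from the other sets across the genome. Among the 3 NIL-MP3 sets 12.7% of all tested loci differed, against 2.43% among the 3 Takanari sets (edgeR's quasi-likelihood test, adjusted p under 0.05). Their median total was 161676 counts, against 121621.5 to 152987.5 in the other 5 sets. The part of depth in the results below was not tested, apart from the thinned counts given in the closing section.

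One locus dominated the counts of the stretch. LOC_Os03g46770 held 32.7% of them, at a mean of 10477 CPM, and the 10 most abundant loci held 48.3%. CPM here are counts scaled to the library's total over the tested loci, times its TMM factor, not to its full total. The median locus had a mean of 55.7 CPM, 104 of 233 lay under 50 CPM, and only LOC_Os03g46770 exceeded 1000 CPM. LOC_Os03g52320 came next, between 583 and 1550 CPM in single libraries.

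Between the cultivars, 3 of the 163 tested loci differed over the 6 tissues, 1.84% against 1.3% of all tested loci, so the share in the stretch was near the background. LOC_Os03g46770 and LOC_Os03g50740 were higher in NIL-MP3 (0.879% of all tested loci were higher) and LOC_Os03g49770 was lower (0.418%). On the rest of chromosome 3, 14 of 882 loci differed (1.59%). Before adjustment, 25 loci of the stretch had a p under 0.05 (15.3%), against 13.8% of all tested loci. In whole tissue samples, fewer cells of a type and less RNA per cell cannot be told apart, which holds for each level below.

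LOC_Os03g46770 ranged from 8270 to 20700 CPM in the 18 NIL-MP3 libraries (median 11700) and from 7260 to 11400 CPM in the 17 Takanari libraries (median 9010). The ranges overlapped, and the overlap came from 1 set. In NIL-MP3 numbers 1 to 6 it lay between 8270 and 9960 CPM (median 9260), inside the Takanari range. In NIL-MP3 numbers 7 to 12 it lay between 11400 and 13300 CPM (median 11700), and in numbers 13 to 18 between 12000 and 20700 CPM (median 12900). Each of these 12 libraries lay above the highest Takanari library. The 3 Takanari sets had medians of 9830, 8490 and 8550 CPM. The highest value, 20700 CPM, was NIL-MP3 AM1 replicate 17.

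The fitted difference of LOC_Os03g46770 over all tissues was 1.27-fold (log2 0.35 ± 0.082, SE, edgeR adjusted p = 0.0127), positive in 6 of 6 tissues. Equal signs in all 6 tissues were found at 14 of the 163 loci (8.59%), against 9.88% of all tested loci. The call used the mean over these tissues, which share the same sets, so the signs are no independent check. By set of library numbers the log2 difference was -0.13 ± 0.085 in numbers 1 to 6 (adjusted p = 0.552), 0.48 ± 0.085 in numbers 7 to 12 (adjusted p = 4.59e-05) and 0.68 ± 0.091 in numbers 13 to 18 (adjusted p = 5.61e-09). The NIL-MP3 sets themselves differed at this locus (edgeR joint test, adjusted p = 3.11e-07), and the Takanari sets did not pass the threshold (adjusted p = 0.13).

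LOC_Os03g50740 was a low locus, with 149 counts in all NIL-MP3 libraries and 61 in all Takanari libraries. It ranged from 26.4 to 136 CPM in NIL-MP3 (median 57.5) and from 0 to 75.4 CPM in Takanari (median 27.1), with overlap. Its median was 55.2, 52.3 and 86.7 CPM in the NIL-MP3 sets, in the order of their numbers, and 23.5, 47.6 and 27.1 CPM in the Takanari sets. All 6 libraries of NIL-MP3 numbers 13 to 18 lay above the 5 Takanari libraries of the same numbers. The difference was 2.11-fold (log2 1.08 ± 0.27, SE, edgeR adjusted p = 0.0209).

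LOC_Os03g49770 had 100 counts in NIL-MP3 and 164 in Takanari. It ranged from 17.4 to 82.4 CPM in NIL-MP3 (median 36.3) and from 36.1 to 152 CPM in Takanari (median 69.9), again with overlap. Its log2 difference was -0.88 ± 0.22 (SE, edgeR adjusted p = 0.0195), with the same sign in 6 of 6 tissues, which is no independent check here either. The 3 sets gave -1.15 ± 0.35, -0.79 ± 0.38 and -0.75 ± 0.34 in the order of their numbers, and none of these passed the threshold alone (adjusted p = 0.0983, 0.319 and 0.169).

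The next locus by p-value among the lower ones, LOC_Os03g51230, did not pass (log2 -0.41 ± 0.12, SE, edgeR adjusted p = 0.0547). It ranged from 132 to 515 CPM in NIL-MP3 (median 301) and from 265 to 624 CPM in Takanari (median 384). Its set medians were 380, 311 and 226 CPM for NIL-MP3 and 387, 421 and 365 CPM for Takanari. Only the comparison within numbers 13 to 18 passed (log2 -0.72 ± 0.18, SE, adjusted p = 0.0044). Under other settings of processing and libraries, the cultivar difference of LOC_Os03g51230 passed in 15 of 53 fits. Those of LOC_Os03g46770, LOC_Os03g50740 and LOC_Os03g49770 no longer passed in 9 of 53, 10 of 50 and 6 of 51 fits.

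**Figure D1:**
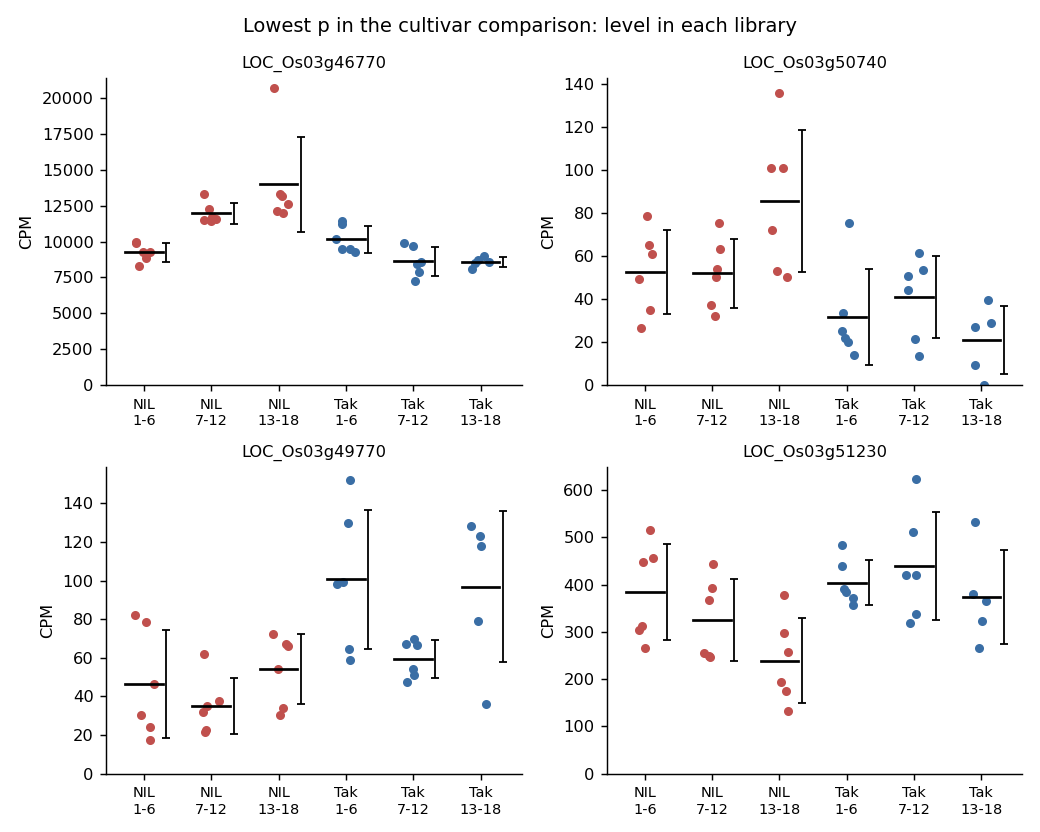
Level in CPM (vertical axis, linear from 0) of the 4 loci with the lowest p in either direction of the cultivar comparison, in each library, by set of library numbers (horizontal axis). Points are libraries, short bars set means and vertical bars 1 SD. LOC_Os03g46770 lies inside the Takanari range in NIL-MP3 numbers 1 to 6 and above it in the other 12 NIL-MP3 libraries.

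None of these 3 differences passed with a random effect of set, or with the sets of library numbers as the unit. In limma voom with a random effect of set, libraries stayed the unit and 1 correlation within sets (0.127) was used for all loci. There none of the 163 loci passed (0), where 11 of all 6943 did (0.158%). The limma adjusted p-values were 0.309 for LOC_Os03g46770, 0.258 for LOC_Os03g50740 and 0.251 for LOC_Os03g49770. With AM counts summed per set, 3 sums against 3, none passed either (0, against 1 of 6943, 0.0144%). Mean levels per set did not overlap between the cultivars at 21 of 233 loci, 9 higher and 12 lower in NIL-MP3. That is 9.01%, against 10% of all 9547 loci with at least 100 counts (4.73% higher and 5.28% lower). The last Takanari set entered these means without a SAM library, so tissues were not balanced.

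The size of the cultivar difference was also close to that elsewhere. The median log2 difference was 0.02 over the 163 loci, 0.0045 over the rest of chromosome 3 and 0.0089 over all tested loci, and its median size without sign was 0.181, 0.17 and 0.182. The SD between the set means of one cultivar, on the log2 scale, had a median of 0.302 in NIL-MP3 and 0.254 in Takanari in the stretch. Over all tested loci it was 0.28 and 0.244. The cultivar difference computed from the same set means had a median size of 0.174, and 0.176 over all tested loci. It is a difference of averages of 3 sets, which vary less than single set means, so its size and the SDs are not like measures. At 35 of the 163 loci (21.5%) the cultivar difference exceeded both SDs, as at 20.9% of all tested loci.

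Neighbouring loci were summarised in bins along the stretch. Over 10 bins of 1000 identifier numbers, the median log2 difference lay between -0.159 (numbers 48000 to 48999, 13 tested loci) and 0.105 (numbers 49000 to 49999, 20 tested loci). The 48 bins of the same width elsewhere on chromosome 3 with at least 5 tested loci gave -0.159 to 0.172, 1 of them below the lowest and 9 above the highest bin of the stretch. The SD of the bin medians was 0.0912 in the stretch and 0.0778 elsewhere on the chromosome. In single sets bins moved further: numbers 48000 to 48999 had a median of -0.61 in library numbers 7 to 12, against 0.061 and 0.044 in the other 2 sets. The 3 loci called between the cultivars lay in 3 different bins. As a description, the deviations of 162 pairs of neighbouring loci from their group means had a median correlation of 0.0094 over the 35 libraries, and all 13203 pairs of loci in the stretch had one of -0.0043. The pairs share libraries and depth, and counts are sparse. At the ends of the stretch, LOC_Os03g45180 had a log2 difference of 0.034 ± 0.32 (SE, adjusted p = 0.983) and LOC_Os03g54980 one of 0.20 ± 0.13 (adjusted p = 0.507).

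**Figure D2:**
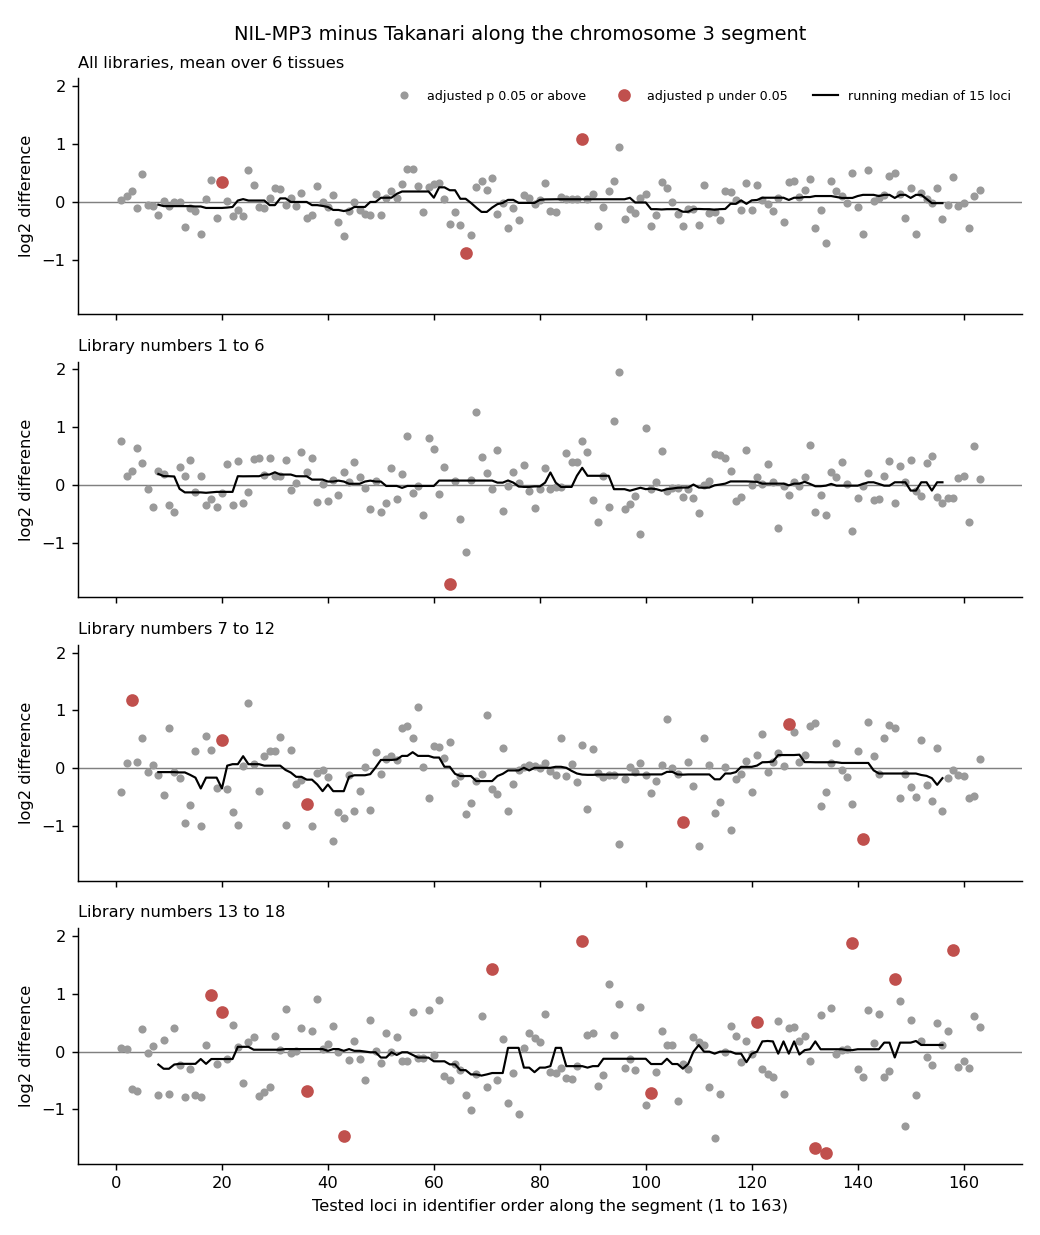
Log2 difference NIL-MP3 minus Takanari (vertical axis) of the 163 tested loci in identifier order (horizontal axis), over all libraries and for each set of library numbers. Red points passed the threshold (3, 1, 6 and 13 loci from top to bottom), and the black line is a running median of 15 loci. The line stays near 0 in the top panel.

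Set by set, the number of loci that differed rose with the number that differed across the genome. In library numbers 1 to 6, 1 of 163 loci differed between NIL-MP3 and Takanari, 0.613% against 0.619% of all tested loci, and it was lower in NIL-MP3 (0.331%). In numbers 7 to 12 there were 6 loci, 3 in each direction, 3.68% against 2.02% (1.43% higher and 0.591% lower). In numbers 13 to 18 there were 13 loci, 8 higher and 5 lower in NIL-MP3, 7.98% against 8.3% (4.21% higher and 4.09% lower). Against the mean of all 3 Takanari sets, the NIL-MP3 sets numbered 7 to 12 and 13 to 18 gave 11 and 26 loci. For numbers 7 to 12 that is 6.75%, against 3.85% on the rest of chromosome 3 and 2.97% of all tested loci. For numbers 13 to 18 it is 16%, against 12.9% and 13.3%. In the comparisons of same-numbered sets, the shares on the rest of chromosome 3 were 0.227%, 2.38% and 9.18%. These fits used the libraries of a set as replicates, with tissue as a term, so their p-values measure the spread within sets and not between sets. The called loci differed by 1.4-fold to 2.34-fold in numbers 7 to 12 and by 1.43-fold to 3.75-fold in numbers 13 to 18.

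All 3 set comparisons had the same sign at 38 loci (23.3%), 18 higher and 20 lower in NIL-MP3, against 24.9% of all tested loci.

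The loci with the lowest p in each set show how they differed. In numbers 1 to 6 the called locus was LOC_Os03g49620, at 0 to 78.5 CPM in NIL-MP3 (median 21.3) and 53 to 152 CPM in Takanari (median 75.7), a log2 difference of -1.71 ± 0.43 (SE, edgeR adjusted p = 0.0233). Its other NIL-MP3 sets had medians of 78.1 and 76.7 CPM, at the level of that Takanari set. LOC_Os03g49770, described above, came next among the lower loci. In the other direction LOC_Os03g51010 (log2 1.95 ± 0.65, adjusted p = 0.139) and LOC_Os03g49960 (log2 1.27 ± 0.43, adjusted p = 0.145) did not pass.

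In numbers 7 to 12, LOC_Os03g53630 was lower in NIL-MP3, at 36 to 85.5 CPM (median 58) against 88.7 to 197 CPM in Takanari (median 140), with no overlap (log2 -1.23 ± 0.30, SE, edgeR adjusted p = 0.00882). LOC_Os03g51520 was also lower, at 46.4 to 139 CPM (median 83.6) against 108 to 233 CPM (median 180), with overlap (log2 -0.92 ± 0.26, adjusted p = 0.0344). Its medians in numbers 13 to 18 were 138 and 197 CPM. Besides LOC_Os03g46770, LOC_Os03g45280 was higher in NIL-MP3 in numbers 7 to 12 (log2 1.19 ± 0.27, adjusted p = 0.00921), and in numbers 13 to 18 its difference was -0.65 ± 0.24 (adjusted p = 0.0805). The Takanari sets differed among themselves at this locus (edgeR joint test, adjusted p = 1.86e-06), and its difference in numbers 7 to 12 against the mean of all 3 Takanari sets was 0.46 (adjusted p = 0.261).

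In numbers 13 to 18, LOC_Os03g53520 was higher in NIL-MP3, at 114 to 163 CPM (median 130) against 7.21 to 98.7 CPM in Takanari (median 9.04), with no overlap (log2 1.87 ± 0.39, SE, edgeR adjusted p = 2.85e-04). These sets held 112 and 22 counts of it, and the Takanari median of 9.04 CPM was 1 count. The medians of the other NIL-MP3 sets were 39.6 and 30.4 CPM, and those of the other Takanari sets were 57.6 and 58.8 CPM. In Takanari AM5 replicate 1 it was at 253 CPM, above all NIL-MP3 libraries of numbers 13 to 18. LOC_Os03g53230 was lower, at 7.78 to 42 CPM (median 30.5) against 9.45 to 279 CPM (median 81.3), with overlap (log2 -1.75 ± 0.42, adjusted p = 0.00221). LOC_Os03g53020 was lower as well, at 0 to 232 CPM (median 29.1) against 57.7 to 445 CPM (median 117), with overlap (log2 -1.67 ± 0.38, adjusted p = 0.00225). Its difference against the mean of all 3 Takanari sets was -0.71 (adjusted p = 0.138).

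The same count of loci within a cultivar gives the scale of these numbers. Between NIL-MP3 numbers 1 to 6 and NIL-MP3 numbers 13 to 18, which share a genotype by label, 23 of 163 loci differed, 14.1% against 12% of all tested loci. In numbers 1 to 6, 14 of them were higher (5.86%). The count was higher than that between the other NIL-MP3 sets (8 loci against 2.75% for numbers 1 to 6 and 7 to 12, 7 loci against 4.25% for numbers 7 to 12 and 13 to 18), and higher than in the 9 comparisons of a NIL-MP3 set with a Takanari set, which gave 0 to 16 loci. NIL-MP3 numbers 1 to 6 differed from the 3 Takanari sets at 1, 0 and 4 loci (0.619%, 0.749% and 0.821% of all tested loci), and the pair with 0 had 22 loci at an unadjusted p under 0.05 (12.3%). NIL-MP3 numbers 7 to 12 did so at 4, 6 and 9 loci (1.53%, 2.02% and 2.3%), and NIL-MP3 numbers 13 to 18 at 16, 15 and 13 loci (9.42%, 8.74% and 8.3%). The 3 pairs of Takanari sets differed at 1, 5 and 1 loci (1.3%, 2.29% and 0.302%).

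**Figure D3:**
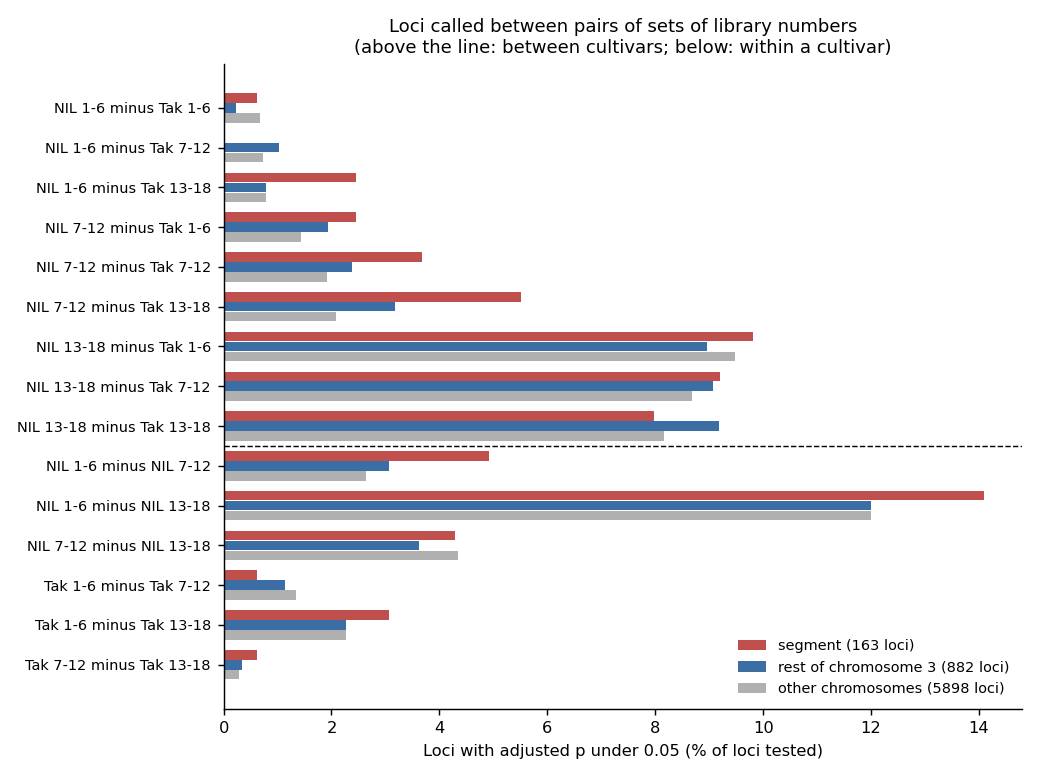
Share of tested loci with an adjusted p under 0.05 (horizontal axis, %) in each of the 15 pairs of sets of library numbers, for the 163 loci of the stretch, the rest of chromosome 3 and the other chromosomes. NIL marks NIL-MP3 and Tak marks Takanari. The longest bars belong to NIL-MP3 numbers 1 to 6 against NIL-MP3 numbers 13 to 18, 14.1% in the stretch.

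Each set was also left out of the cultivar comparison in turn. Without NIL-MP3 numbers 1 to 6 it was 14 of 164 tested loci, 5 higher and 9 lower in NIL-MP3, 8.54% against 6.04% of all tested loci, and all 3 loci named above were among them. Without NIL-MP3 numbers 7 to 12 it was 1 locus (0.649% against 0.684%), and without NIL-MP3 numbers 13 to 18 it was 1 locus (0.645% against 0.353%). Without the Takanari sets it was 1, 2 and 0 loci in the order of their numbers (0.85%, 0.553% and 0.645% of all tested loci). For LOC_Os03g46770 cultivar differences were log2 0.49 without NIL-MP3 numbers 1 to 6 (edgeR adjusted p = 1.55e-05) and 0.21 without NIL-MP3 numbers 13 to 18 (adjusted p = 0.217). It also did not pass without NIL-MP3 numbers 7 to 12, Takanari numbers 7 to 12 or Takanari numbers 13 to 18 (adjusted p = 0.0979, 0.185 and 0.101).

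The share of chromosome 3 counts that fell in the stretch was 17.2% to 22.5% in NIL-MP3 libraries (median 18%, n = 18) and 15.8% to 18.8% in Takanari libraries (median 16.8%, n = 17), with overlap. Its mean was 18.2% ± 1.18 and 17.1% ± 0.907 (SD). Without LOC_Os03g46770 the means were 12.6% ± 0.481 and 12.6% ± 0.655, so the difference in the sum lay in that locus. The means of the sets were then 13%, 12.2% and 12.4% in NIL-MP3 and 12.6%, 12.8% and 12.4% in Takanari.

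**Figure D4:**
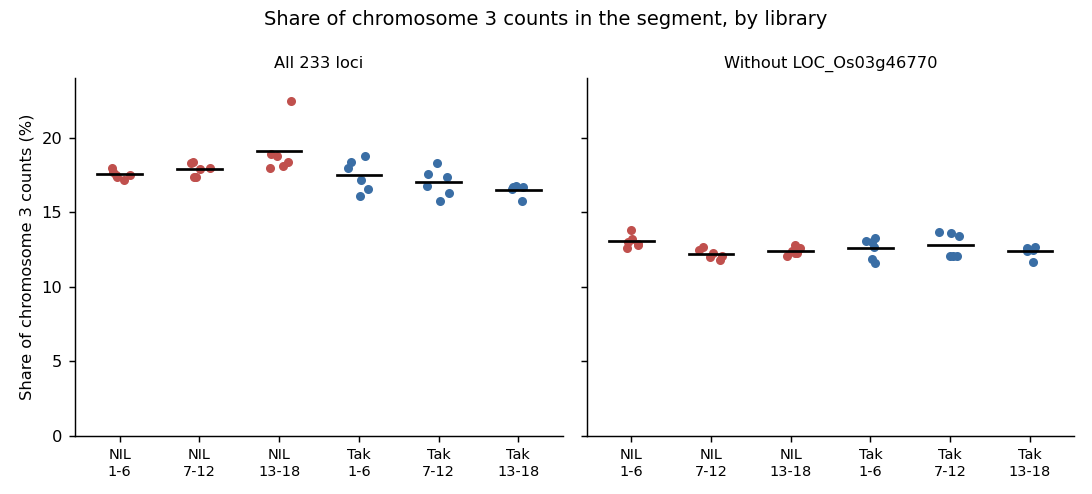
Share of each library's chromosome 3 counts that fell in the 233 loci (vertical axis, %, from 0), with and without LOC_Os03g46770, by set of library numbers (horizontal axis). Points are libraries and bars are set means. The NIL-MP3 sets numbered 7 to 12 and 13 to 18 have the highest means on the left (17.9% and 19.1%), and not on the right (12.2% and 12.4%).

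Along AM1 to AM5, 30 of 163 loci changed, which is 18.4% against 19.2% of all tested loci. Of these, 10 rose and 20 fell, where 9.36% of all tested loci rose and 9.81% fell. All 30 had the same sign in both cultivars when each was fitted alone, as did 1328 of the 1331 called loci of the genome. The loci were called on the slope averaged over both cultivars, and that choice itself favours equal signs. The sign count is therefore no independent check of one cultivar by the other. In NIL-MP3 alone 9 loci passed (5.52% against 5.07%) and in Takanari alone 20 (12.3% against 11.4%). No slope differed between the cultivars (0 of 163 and 0 of 6943 with edgeR), and 11 loci had an unadjusted p under 0.05 for that difference (6.75% against 4.26%). Rising and falling loci were spread over the stretch, with 1 to 5 called loci in each of the 10 bins.

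LOC_Os03g45280 had the steepest rise in size among the called loci. It ranged from 43.2 to 174 CPM in AM1 (median 67.4), 61 to 272 CPM in AM2 (115), 33.8 to 307 CPM in AM3 (138), 152 to 523 CPM in AM4 (322) and 543 to 2730 CPM in AM5 (933), with 6 libraries each. In SAM it ranged from 40.4 to 187 CPM over 5 libraries, as in AM1. AM5 lay above every library of the other tissues. The slope was 0.89 ± 0.12 log2 units per label number (SE, edgeR adjusted p = 4.64e-06), 0.88 ± 0.16 in NIL-MP3 and 0.89 ± 0.16 in Takanari.

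LOC_Os03g51650 rose less, from 109 to 196 CPM in AM1 (median 126) to 214 to 549 CPM in AM5 (median 237), with no overlap (slope 0.32 ± 0.077, SE, edgeR adjusted p = 0.00268). Its SAM libraries lay between 38.1 and 142 CPM. LOC_Os03g50885 fell from 434 to 708 CPM in AM1 (median 579) to 217 to 353 CPM in AM5 (median 252), with no overlap (slope -0.29 ± 0.042, adjusted p = 2.4e-07). LOC_Os03g50290 fell from 641 to 1170 CPM in AM1 (median 1090) to 299 to 544 CPM in AM5 (median 508), also with no overlap (slope -0.27 ± 0.043, adjusted p = 2.82e-06). In SAM both falling loci were between their AM1 and AM5 medians, at medians of 464 and 837 CPM. The NIL-MP3 sets differed at both of them (edgeR joint test, adjusted p = 0.0214 and 3.38e-05).

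Against SAM, 2 of 163 loci were lower over the AM libraries, 1.23% against 1.35% of all tested loci, where 0.965% were lower, and none was higher (0). With sets as a block of 6 levels the count was 7 (4.29% against 4.06%). LOC_Os03g53920 ranged from 55.6 to 148 CPM in SAM (median 118, n = 5) and from 0 to 135 CPM in AM (median 76.4, n = 30), with overlap (log2 -1.09 ± 0.27, SE, edgeR adjusted p = 0.0262). Most of its low values were in AM5, at 0 to 22.2 CPM, from 7 counts in 6 libraries. LOC_Os03g52680 ranged from 96.9 to 137 CPM in SAM (median 108) and from 0 to 219 CPM in AM (median 46.6), with overlap. Its AM1 libraries lay near the SAM level, at 32.4 to 219 CPM (median 97). The medians of AM2 to AM5 were 43.7, 53.8, 48.3 and 22.3 CPM. The log2 difference of LOC_Os03g52680 was -1.17 ± 0.30 (SE, edgeR adjusted p = 0.0288). Neither passed when any of 4 of the 5 SAM libraries was left out. The adjusted p of the LOC_Os03g53920 AM against SAM difference was then 0.0978 and 0.0796 without NIL-MP3 SAM replicates 6 and 12, and 0.0794 and 0.351 without Takanari SAM replicates 6 and 12. For the LOC_Os03g52680 AM against SAM difference it was 0.0615, 0.0715, 0.114 and 0.346 in the same order. Either Takanari omission leaves 1 library in that group, which is assumed to vary like the other groups. In the opposite direction LOC_Os03g51650 (log2 0.99 ± 0.33, adjusted p = 0.146) and LOC_Os03g45280 (log2 1.56 ± 0.53, adjusted p = 0.175) did not pass.

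**Figure D5:**
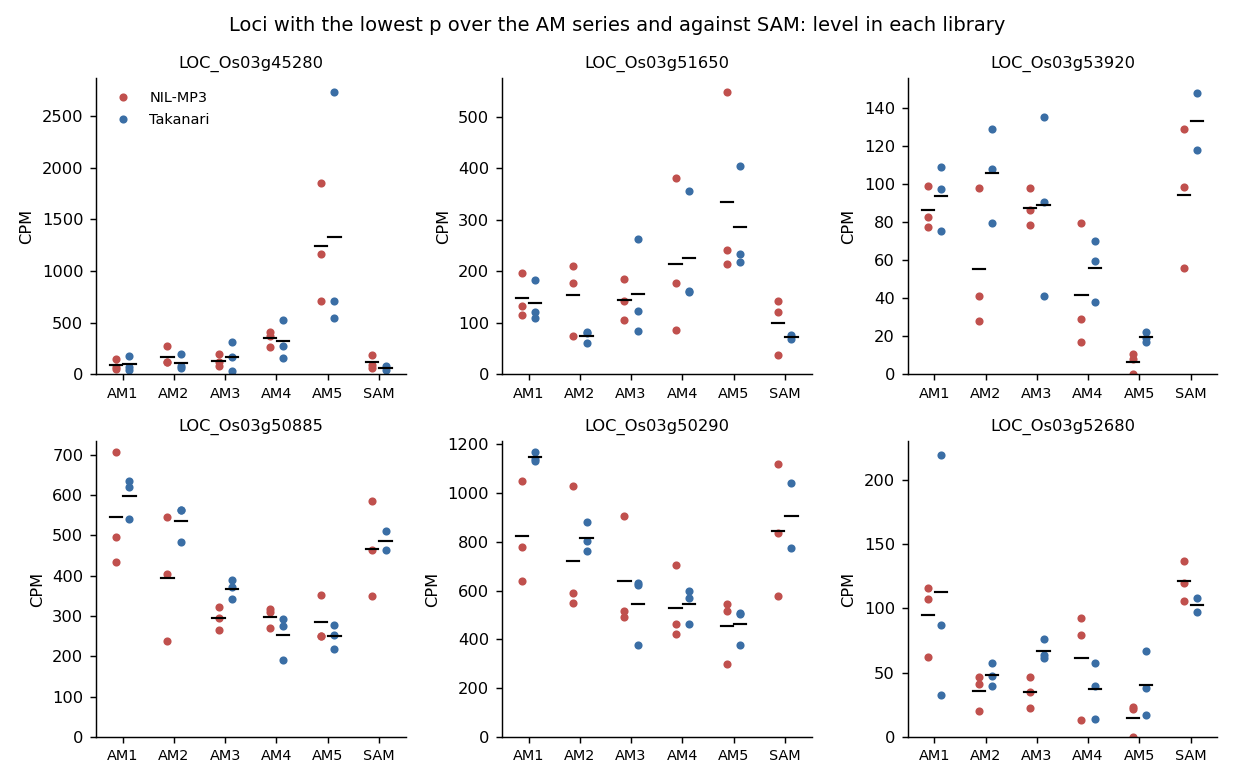
Level in CPM (vertical axis, linear from 0) in each library of the loci with the lowest p along AM1 to AM5 (left and middle columns) and lower in AM than in SAM (right column), by tissue label (horizontal axis). Points are libraries, coloured by cultivar, and bars are means. LOC_Os03g45280 and LOC_Os03g51650 are highest in AM5, where LOC_Os03g53920 lies at 22.2 CPM or below.

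Whether the cultivar difference varied between tissues was tested at the same 163 loci, and none passed (0 of 163, as 0 of 6943, in edgeR's joint test, and 0 of 163 with DESeq2 or limma voom). Before adjustment 3 of 163 loci had a p under 0.05 (1.84%), against 1.8% of all tested loci. Within any single tissue no locus of the stretch passed (0, edgeR, as 0 of 6943). Before adjustment a p under 0.05 was found at 9, 10, 2, 6, 7 and 5 loci in AM1 to AM5 and SAM, in that order, against 5.82%, 4.34%, 3.6%, 4.16%, 5.23% and 4.09% of all tested loci. The 70 loci that did not pass the filter were tested in a fit with no filter. There 0 differed between the cultivars over all tissues (lowest adjusted p = 0.214; 0.59% of all loci with a count were called), 1 differed in numbers 1 to 6 (0.227%) and 1 had a falling slope (5.49%).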

How the data were processed

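The deposited matrix holds raw counts of molecules per locus, 1 column per library, not normalized. Bowtie2 and Subread 2.1 are named, with no role, per the submitters' processing notes. For the genome build, the annotation and the counting of overlapping or near-identical loci nothing is stated, so levels of such loci are uncertain. Per the labels' protocols, 100 pg of RNA and 11 to 15 PCR cycles were used. Totals of 77362 to 224706 counts per library set the precision. The median locus of the stretch had 239 counts over all libraries, and where a library shows 0 as many as 3 counts are allowed (counting error only).

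Counts were filtered with filterByExpr (minimum count 10) and scaled by TMM. CPM used the same scaling, with each library total taken over the tested loci only. Groups were compared by the quasi-likelihood F test (edgeR 4.0.16, run under R 4.3.3) with dispersions estimated robustly and 1 mean per group of cultivar and tissue. Comparisons between sets used 6 sets plus tissue. Adjusted p-values are Benjamini-Hochberg values over all 6943 tested loci at 0.05, and edgeR's unless another tool is named. Each SE is the log2 value, without sign, over the root of F. Alternatives used DESeq2 1.42.0 and limma 3.58.1. The edgeR fits were also run on simulated counts that left out the spread between sets, so that run says nothing about that spread. The members, lists and comparisons were chosen with earlier results of these data known. The joint tests among the sets of a cultivar, the shares of chromosome 3 counts, the set means and the neighbour correlations were added after the data were examined. The loci named are the first 2 by p-value in each direction of each comparison, the 2 most abundant and the 2 at the ends.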

Additional observations from a re-analysis of the deposited data

How the results depend on the processing

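Library numbers did not pair the cultivars: deviations of the 17 same-numbered libraries correlated at -0.0811 to 0.123, over 0.1 in 2 pairs, and 2 libraries correlated best with their own number. With library number as a replicate block of 18 levels 3 loci differed between the cultivars, and LOC_Os03g49770 alone was among the main 3. There LOC_Os03g46770 and LOC_Os03g50740 each had an edgeR adjusted p of 0.0672. With a block of 3 levels 4 loci differed between the cultivars. With 6 levels 7 loci differed between AM and SAM (4.06% of all loci), against 2 in the main test. No share over all loci was computed for the blocks of 18 and 3 levels, the thresholds of 0.01 and 0.10 or the thinned counts. Those counts cannot be set against the background. The count for the cultivars, 3 in the main test, was 0 under a random effect of set, 0 with AM counts summed per set, 14, 1 and 1 without NIL-MP3 numbers 1 to 6, 7 to 12 and 13 to 18, 1 and 0 without Takanari numbers 1 to 6 and 13 to 18, 0 and 5 at thresholds of 0.01 and 0.10, and 1 in counts thinned to the lowest total, a setting chosen after seeing the data, as were those without sets for AM against SAM and without both AM5 libraries of lowest total.

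The count for numbers 1 to 6 (1) was 2 with no filter, 0 with the stricter filter, 0 at 0.01, 2 at 0.10 and 0 in thinned counts. That for numbers 7 to 12 (6) was 11 against the mean of all Takanari sets, 2 in a narrower interval, the middle of the stretch, 3 at 0.01 and 3 in thinned counts. That for numbers 13 to 18 (13) was 7 with the stricter filter, 26 against the mean of all Takanari sets and 6 in the narrower interval. The slope count (30) was 17 of 160 tested loci without Takanari numbers 13 to 18, 10.6% against 15% of all tested loci. It was 16 in the narrower interval, which holds fewer loci, and 19 at 0.01. The count for AM against SAM (2) was 0 with the stricter filter, in the narrower interval, at 0.01 and without NIL-MP3 numbers 7 to 12, Takanari numbers 1 to 6 or Takanari numbers 7 to 12, and 1 with DESeq2 and in thinned counts. The cause of these moves was not tested, apart from the fewer loci or libraries that a setting leaves. No share over all loci was computed for the stricter filter, DESeq2, the thresholds, the thinned counts or AM against SAM with a set left out. Counts in the narrower interval stand without the number of tested loci in it, so they cannot be read as a change in share.

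Leaving out 1 library at a time gave 0 to 5 loci for the cultivars (0 without Takanari SAM replicate 12, 5 without NIL-MP3 AM1 replicate 5), 0 to 2, 3 to 7 and 11 to 17 for the 3 sets, 21 to 31 for the slope, 0 to 2 for AM against SAM and 0 for the interaction, and medians of -0.0149 to 0.0452 for the log2 difference. No share over all loci was computed for the fits with 1 library left out. The named loci gave 1268 values under other settings, and 1168 kept their direction and side of the threshold. Of the others, 66 no longer passed, 20 came to pass (15 of them for the LOC_Os03g51230 cultivar difference) and 14 changed sign. All 14 were of LOC_Os03g45180, whose log2 difference of 0.034 had an SE of 0.32. The LOC_Os03g45180 cultivar difference was -0.1409 and -0.173 without NIL-MP3 numbers 1 to 6 and 13 to 18, -0.009947 without Takanari numbers 1 to 6, and -0.1824 to 0.1243 when 1 library was left out.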
